A study of Homo sapiens with 7 samples.

Results

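The genes described here are 5 members of the ETS family of transcription factors, SPI1, ETS1, FLI1, ETS2 and GABPA, and the question is where the vitamin D receptor (VDR) was enriched around them with and without its hormone. The genes were listed by name rather than by a threshold on a measured value, and a peak belonged to a gene where any part of it lay in the gene body or within 100 kb on either side, in hg19. A peak in the windows of ETS1 and FLI1, which overlap, went to the nearer gene. This gave 58 peaks out of 89218 in all lists. Peaks that shared at least 1 bp were merged into a site, and the 58 peaks formed 33 sites: 3 at SPI1, 14 at ETS1, 8 at FLI1, 4 at ETS2 and 4 at GABPA.

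The cells were THP-1, a human monocytic leukaemia line, treated for 8 h with 100 nM 1,25(OH)2D3 (1,25D, the active form of vitamin D) or with the solvent, 0.1% ethanol (EtOH). VDR-bound DNA was recovered with a VDR antibody by ChIPmentation, in which a transposase inserts the sequencing adapters during chromatin immunoprecipitation. Each treatment had 3 libraries with a peak list each, while the input library stayed out of the analysis. Whether the replicates came from separate cultures is not given in the labels, so the spread between them may be technical, and the lists hold no expression values by which the cell type could be checked. All 6 lists cover chromosome 11, which holds SPI1, ETS1 and FLI1. The list of 1,25D replicate 2 ends on chromosome 16 as used here, so chromosome 21, which holds ETS2 and GABPA, is covered by 5 lists, of which 2 are from 1,25D. The lists carry from 3647 to 33820 peaks, the longest being EtOH replicate 2, and no read counts, so the depth behind a peak is unknown. Both replicates 1 have a highest p-value of 0.0043, and the others of 0.00978 to 0.00997, so the lists do not reach equally far down.

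ETS factors share a DNA-binding domain that reads a GGAA core. SPI1 encodes PU.1, which directs myeloid and B cell development and opens chromatin in monocytes and macrophages. FLI1 acts in blood stem cells and megakaryocytes, ETS1 is best known from lymphocytes and blood vessels, ETS2 responds to growth factor signalling in many cells including macrophages, and GABPA is the DNA-binding part of a widely expressed complex that controls housekeeping and mitochondrial genes. VDR itself binds with a retinoid X receptor, typically to a pair of hexamers separated by 3 bases.

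For the chromosome 21 members, the sequence before the gene start could be read from RefSeq (GRCh38.p14); 2 of the 5 genes matched an entry, ETS2 with 2 starts. GABPA is shown because the start of its hg19 body was the only one of the 5 with a peak on it, and ETS2 because it had no site within 50 kb of its start. Each sequence is the 250 bases before the RefSeq start on the plus strand, for ETS2 the first of its starts, chr21:25734722-25734971 for GABPA and chr21:38804933-38805182 for ETS2. Capitals mark the ETS core GGAA, or TTCC on the other strand, and the hexamers AGGTCA or AGTTCA or GGTTCA or GGGTCA on either strand.
GABPA: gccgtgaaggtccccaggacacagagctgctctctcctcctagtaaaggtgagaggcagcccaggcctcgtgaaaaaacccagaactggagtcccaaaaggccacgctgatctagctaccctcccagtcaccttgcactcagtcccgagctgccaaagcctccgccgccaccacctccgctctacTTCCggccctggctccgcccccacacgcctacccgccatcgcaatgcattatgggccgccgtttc
ETS2: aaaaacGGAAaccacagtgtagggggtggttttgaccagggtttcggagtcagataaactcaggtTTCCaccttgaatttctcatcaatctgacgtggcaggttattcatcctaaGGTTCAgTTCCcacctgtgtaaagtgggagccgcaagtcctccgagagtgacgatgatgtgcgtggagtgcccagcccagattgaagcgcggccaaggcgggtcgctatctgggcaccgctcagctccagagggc
The GABPA sequence held 1 ETS core, on the minus strand at position -65, counting the leftmost base of a match back from the start, and it lay inside the longer match CCGGAAG, which 8.52% of the 35116 RefSeq windows of this length hold, against 92.7% for GGAA alone. It held none of the hexamers, which 33.8% of the windows hold. The ETS2 sequence held 3 ETS cores and no CCGGAAG, and 1 hexamer, GGTTCA at position -135, found in 7.16% of windows. The window before the second ETS2 start held 6 ETS cores and no hexamer. None of these held a pair of these hexamers in the same direction 3 bases apart, a spacing present in 23 windows (0.0655%). ATP5PF, which encodes a subunit of the mitochondrial ATP synthase, starts on the opposite strand in RefSeq, at 82 and -68 bases from the GABPA start in its entries, so a peak there cannot be assigned to either gene. The gene body used for GABPA in hg19 is 402 bp longer than the RefSeq gene, so the printed bases are not shown to lie under the peak described below.

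SPI1 had a site within its body that was called after 1,25D and not after EtOH. It lay on chromosome 11 at 47381031 to 47381747, on the gene's minus strand 18.4 to 19.1 kb after the start and -4.62 kb from the 3' end, that is inside the gene. The authors' fold enrichment over background was 3.12, 5.26 and 5.46 in 1,25D replicates 1 to 3, and no EtOH list had a peak there. The 1,25D peak was weak in replicate 1, where it was only 167 bp long with a p-value of 0.000222. Within the part of each list compared over 6 lists, it stood above 12.5% of the peaks in replicate 1. In replicates 2 and 3 it stood above 78.7% and 82.8%. Peaks in the other lists were 344 and 620 bp long, and the stretch shared by all 3 was the replicate 1 peak itself, at 47381174 to 47381341. The mean fold of 4.62 ± 1.30 (SD, n = 3) was close to the median of 4.86 over all 492 sites of this kind. The remaining SPI1 sites were peaks of single EtOH lists in the 3' flank. The stronger had a fold of 3.36 in EtOH replicate 1, at 47316245 to 47316413, and the other 2.63 in EtOH replicate 2. None of the 6 lists had a peak in the 5' flank of SPI1 or within 18 kb of its start.

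**Figure D1:**
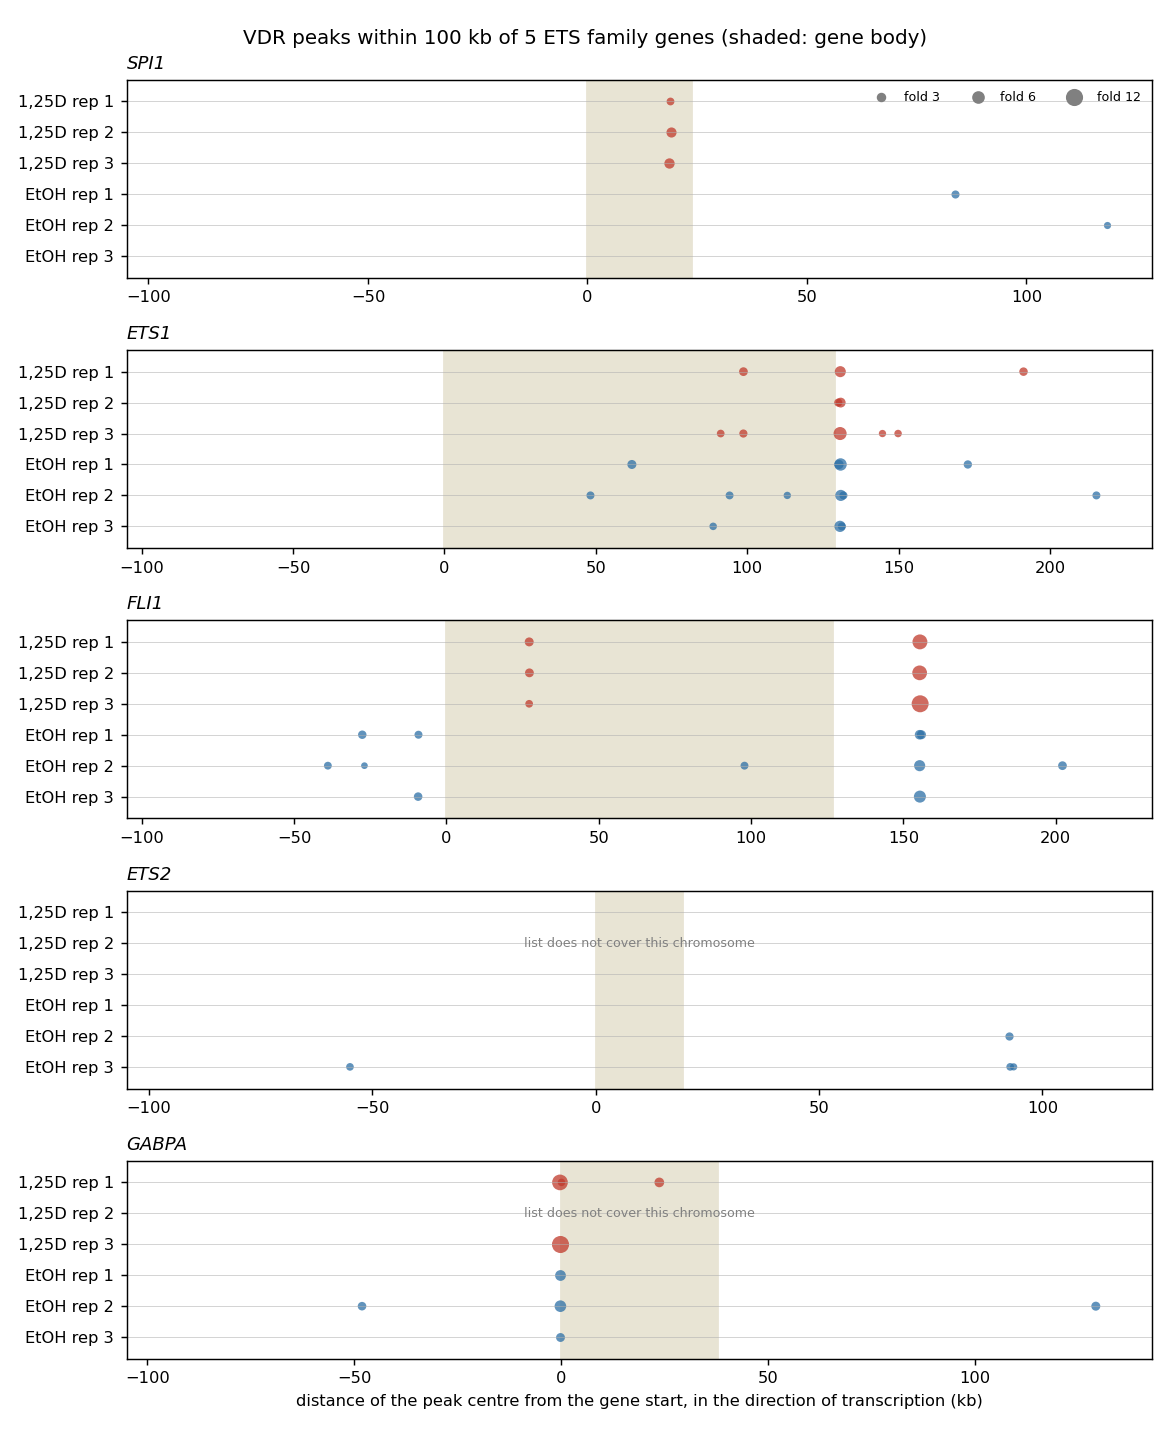
Peaks around each gene, with the distance of the peak centre from the gene start in kb on the x axis (positive in the direction of transcription), a row per list, red for 1,25D and blue for EtOH, point area in proportion to the authors' fold, and the gene body shaded; peaks between ETS1 and FLI1 are drawn at the nearer gene. The SPI1 and FLI1 bodies have a column of 3 red points with no blue ones, whereas the columns at the GABPA start and in the 3' flanks of ETS1 and FLI1 run through every covering list.

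FLI1 had the site with the highest 1,25D folds among the chromosome 11 genes, and a weaker one that was called after 1,25D alone. The strong site was in the 3' flank, at 128711318 to 128712411, 28.2 to 29.2 kb beyond the gene's end. On that side KCNJ1, a potassium channel gene, is the next protein-coding gene in RefSeq. Whether the site lies before or inside KCNJ1 in hg19 was not determined, so it cannot be assigned to either gene. The folds of the site were 11.4, 11.1 and 14.8 in 1,25D replicates 1 to 3 and 4.72, 6.35 and 7.42 in EtOH replicates 1 to 3. Every 1,25D value lay above every EtOH value, but folds of separate lists have no common scale, and over all sites present in the 6 lists the median of the mean fold was 10.2 after 1,25D and 5.55 after EtOH. How many of those sites had folds apart in this way was not counted. The strongest peaks of the 6 lists shared 305 bp, at 128711593 to 128711898. EtOH replicate 1 had 2 separate peaks within the site, of 326 and 147 bp.

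The FLI1 site called after 1,25D alone lay inside the gene at 128583437 to 128583886, 27.0 to 27.5 kb after the start. Its folds were 4.11, 3.99 and 3.05 in 1,25D replicates 1 to 3 and no EtOH list had a peak there. These are modest values: the mean was 3.72 ± 0.582 (SD, n = 3), below the lower quartile of 4.14 for sites of this kind, and the peak of replicate 3, with a p-value of 0.00117, ranked above 23.2% of its list. Upstream of FLI1, between -9.37 and -9.11 kb from its start, a site at 128547063 to 128547324 was called in EtOH lists only. Its folds were 3.28 in EtOH replicate 1 and 3.74 in EtOH replicate 3, with no peak in EtOH replicate 2 or any 1,25D list. These peaks, of 147 and 144 bp, shared only 30 bp. How many of all sites were called in this way was not counted. The other 5 FLI1 sites were each in a single EtOH list, the strongest at 128758553 to 128758707 with a fold of 3.92 in EtOH replicate 2.

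ETS1 had the most sites of the 5 genes, and the one that recurred in every list lay just past its 3' end. This site, at 128326028 to 128327560, was 1096 to 2628 bp beyond the end of the gene and the longest here at 1532 bp. The folds were 6.27, 4.98 and 8.74 in 1,25D replicates 1 to 3 and 7.92, 6.34 and 6.49 in EtOH replicates 1 to 3, so the groups overlapped. It was built of 9 peaks, with 2 each in 1,25D replicate 2, EtOH replicate 1 and EtOH replicate 3, and the strongest peaks of the 6 lists shared 503 bp at 128326419 to 128326922. EtOH replicate 2 had a further peak of fold 3.34 just before the site, at 128325537 to 128325869. A second ETS1 site, inside the gene at 128358655 to 128358824, was called in 1,25D replicates 1 and 3 with folds of 3.92 and 3.43 and in no other list. The share of all sites with this pattern was not counted. The remaining 12 sites were in 1 list each, 4 from 1,25D and 8 from EtOH, and the strongest of them, at 128395499 to 128395646, had a fold of 4.19 in EtOH replicate 1. Of the 14 ETS1 sites 7 were in the body and 7 in the 3' flank, and the nearest to the start was 48.1 kb after it.

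GABPA was the only one of the 5 genes with a peak across the start of its hg19 body as used here. The RefSeq gene is 402 bp shorter, so whether a peak reaches the RefSeq start is not shown. The site at chromosome 21, 27106428 to 27107098, ran from -453 to 217 bp around the start of the gene body and was called in all 5 lists that cover it. The folds were 12.6 and 14.9 in 1,25D replicates 1 and 3 and 5.95, 6.92 and 4.05 in EtOH replicates 1 to 3. Both 1,25D values lay above all EtOH values, and the means were 13.8 ± 1.64 (SD, n = 2) and 5.64 ± 1.46 (SD, n = 3), beside medians of 9.60 and 5.50 over the 311 sites in all 5 lists. Folds of separate lists have no common scale, and how many of the 311 sites had folds apart in this way was not counted. The stretch common to the strongest peaks, 239 bp at 27106549 to 27106788, ended 93 bp before the start, and only the peak of 1,25D replicate 3 and a second, weaker peak of 1,25D replicate 1 (fold 2.89) reached the start itself. The other 3 GABPA sites were in a single list each, among them one inside the gene at 27130539 to 27130686 with a fold of 4.81 in 1,25D replicate 1.

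**Figure D2:**
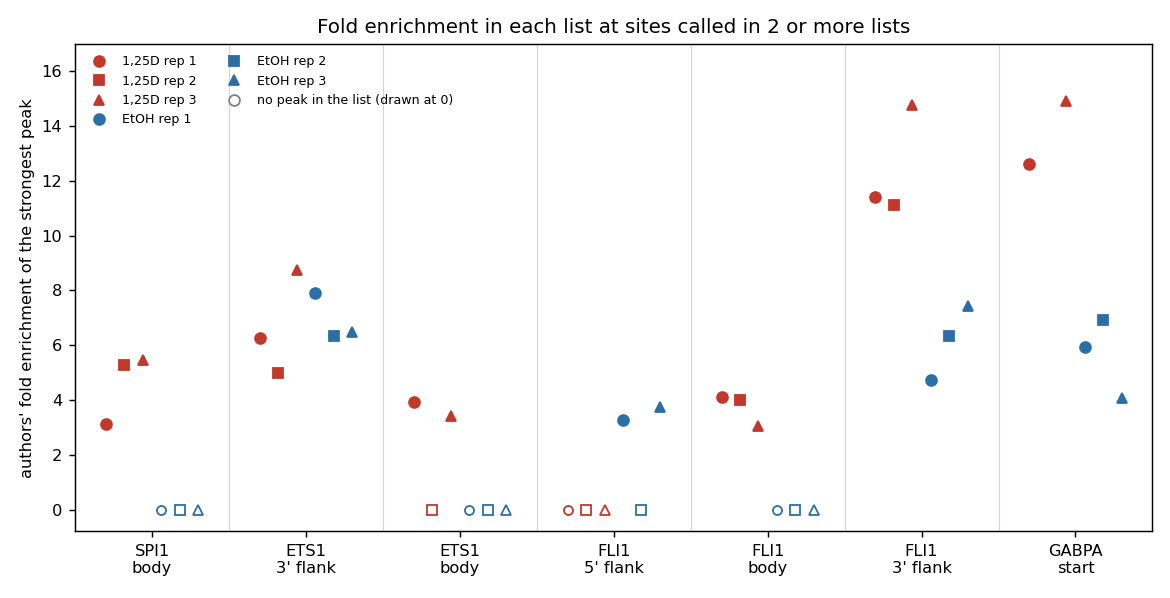
The authors' fold enrichment (y axis) of the strongest peak in each list at the 7 sites called in 2 or more lists, with red for 1,25D, blue for EtOH, a symbol per replicate, and open symbols at 0 for a list with no peak. The SPI1 and FLI1 body sites have 3 filled red symbols and 3 open blue ones, and the values of both treatments overlap at the ETS1 3' flank but not at the FLI1 3' flank or the GABPA start. Folds of separate lists have no common scale, and how many of all sites in every covering list had folds apart in this way was not counted.

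ETS2 had no site that was called in more than 1 list. Its 4 sites were all from EtOH lists: 1 at 54.9 kb before the start, and 3 short peaks lying close together in the 3' flank, the strongest of which, at 40269676 to 40269824, had a fold of 3.46 in EtOH replicate 2. The next 2, from EtOH replicate 3, had folds of 3.01 and 2.66. The 2 lists from 1,25D had no peak in the ETS2 window. The outermost sites inside any window were weak single-list peaks, 94.6 kb past SPI1 with a fold of 2.63 and 91.2 kb past GABPA with a fold of 4.15, both in EtOH replicate 2. Just outside the ETS2 window, 5.86 kb beyond the window's edge and 106 kb past the gene's end, a site at 40302741 to 40303098 had folds of 8.13 and 7.60 in 1,25D replicates 1 and 3 and no EtOH peak. A second such site, 160 kb past the end at 40357045 to 40357512, had folds of 5.84 and 6.68. These sites were singled out after their values were seen, and which gene they belong to was not tested. In the same outer band of 100 to 200 kb, SPI1, ETS1 and GABPA each had 1 site in more than 1 list and FLI1 had none.

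The counts of recurrent sites are set here beside those over the whole of the compared lists. Around SPI1, ETS1 and FLI1, 2 of 25 sites (8.0%) were in all 1,25D and no EtOH lists, compared with 1.70% of the 28993 sites covered by 6 lists, and another 2 (8.0%) were in all 6 lists, compared with 1.03%. Sites of 1 list formed 19 of 25 (76.0%), against 89.8%. Around ETS2 and GABPA, none of 8 sites was in both 1,25D and no EtOH lists, where the share over 23257 sites was 2.70%, 1 of 8 was in all 5 lists, where it was 1.34%, and 7 of 8 were in 1 list, where it was 91.9%. Per length of genome, sites called after 1,25D alone and sites in all lists each came at 2.57 per Mb around the chromosome 11 genes, beside 0.349 and 0.297 per Mb over that chromosome. Around the chromosome 21 genes they came at 0 and 2.19 per Mb, beside 0.549 and 0.288 per Mb. Sites of any kind were spaced at 32.1 per Mb around the chromosome 11 genes, compared with 24.5 per Mb between the first and last peak of that chromosome, and at 17.5 per Mb around the chromosome 21 genes, compared with 20.1. The classes of recurrent sites hold 0 to 2 member sites each, the 5 genes were chosen with earlier results known, and no test was made.

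The 26 sites of 1 list were short and weak, with a median length of 148 bp (142 to 332) and a median fold of 3.25 (2.30 to 4.81). EtOH replicate 2, which has the longest list, accounted for 13 of them, EtOH replicates 1 and 3 for 4 each, 1,25D replicates 1 and 3 for 2 and 3, and 1,25D replicate 2 for none. That last list does not cover chromosome 21, where 7 of these sites lay, near ETS2 and GABPA.

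The numbers of peaks within 100 kb of the genes overlapped between treatments. SPI1, ETS1 and FLI1 together had 6, 5 and 8 peaks in 1,25D replicates 1 to 3 and 9, 12 and 5 in EtOH replicates 1 to 3, a difference in means of -2.33 (two-sided exact permutation test, p = 0.5). At a fold of 5 or more they had 2, 2 and 3 against 1, 2 and 2 (p = 0.6, the same exact permutation test). ETS2 and GABPA together had 3 and 1 peaks in 1,25D replicates 1 and 3 and 1, 4 and 4 in EtOH replicates 1 to 3 (exact permutation p = 0.6), of which 1 and 1 against 1, 1 and 0 had a fold of 5 or more (exact permutation p = 1). The smallest p that 3 against 3 or 2 against 3 libraries allow is 0.1, so no difference of any size could pass a usual threshold. Between replicates 1, which share the lower highest p, the counts were 6 and 9 near the chromosome 11 genes and 3 and 1 near the others. As a share of the peaks compared in each list, the peaks near the chromosome 11 genes made up 0.115%, 0.137% and 0.181% after 1,25D and 0.171%, 0.106% and 0.0874% after EtOH, which also overlap. The difference near ETS2 and GABPA was 0 without 1,25D replicate 3 and turned to 0.667 with windows of 50 kb and 1.67 with windows of 200 kb. At a fold of 5 or more it was 0.333 with windows of 100 kb and 2.83 with windows of 200 kb, where the means were 3.5 after 1,25D and 0.667 after EtOH (exact permutation p = 0.1, the smallest possible). The wider windows take in the sites past ETS2 described above.

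**Figure D3:**
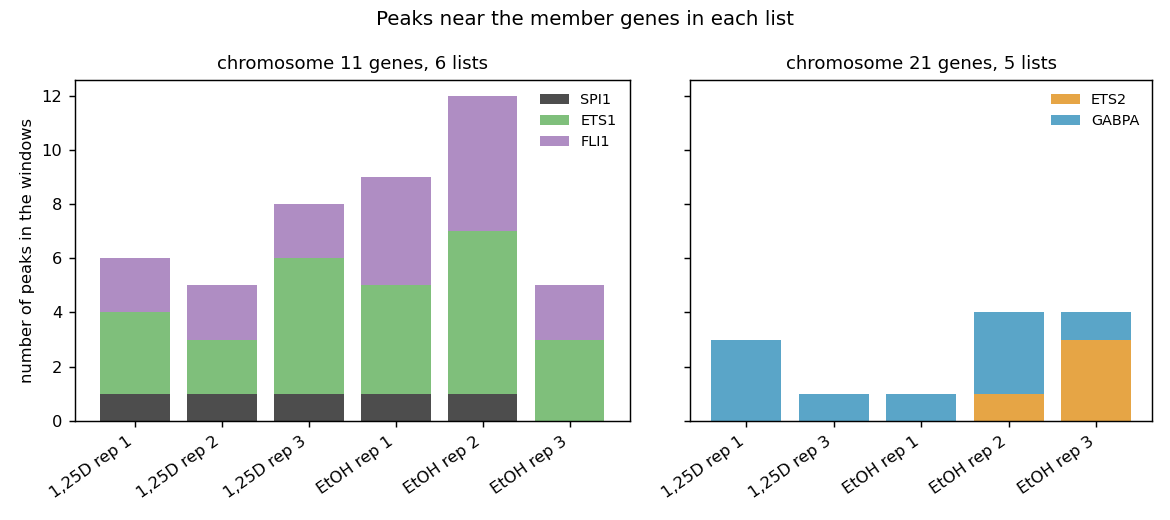
Number of peaks (y axis) within 100 kb of the genes in each list, stacked by gene, for the 6 lists that cover chromosome 11 and the 5 that cover chromosome 21. EtOH replicate 2 has the tallest bar of the chromosome 11 genes, with 12 peaks, and peaks near ETS2 are found in EtOH replicates 2 and 3 alone.

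To compare the recurrent sites on a scale that every list shares, the sites present in all covering lists were ranked by fold within each list, from 1 for the highest, over 298 sites in the 6 lists and 311 in the 5. The ETS1 site ranked lower after 1,25D. Its ranks were 213, 251 and 187 in 1,25D replicates 1 to 3 and 63, 118 and 109 in EtOH replicates 1 to 3, with no overlap (exact permutation p = 0.1, the smallest possible, and 0.222 with Benjamini-Hochberg adjustment over all 298 sites). Among the 298 sites, 24.2% ranked lower without overlap and 20.8% higher, so such a shift was common. A rank is relative to the other sites of a list, and the site's own folds overlapped, with means of 6.66 ± 1.91 after 1,25D and 6.92 ± 0.875 after EtOH (SD, n = 3 each).

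The FLI1 3' flank site overlapped in rank between treatments, with ranks of 118, 125 and 85 after 1,25D and 200, 117 and 78 after EtOH (exact permutation p = 0.9, adjusted 0.96). The difference in mean rank, 1,25D minus EtOH, was -22.3, nearer the top after 1,25D, and it turned to 16.3 without EtOH replicate 1. The GABPA start site ranked 99 and 86 after 1,25D and 117, 110 and 246.5 after EtOH, higher in each 1,25D list than in any EtOH list. Among the 311 sites 22.5% ranked higher in this way and 23.5% lower. The difference in mean rank was -65.3 (exact permutation p = 0.4, adjusted 0.62), and it shrank to -18 without EtOH replicate 3, where the peak was weakest.

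**Figure D4:**
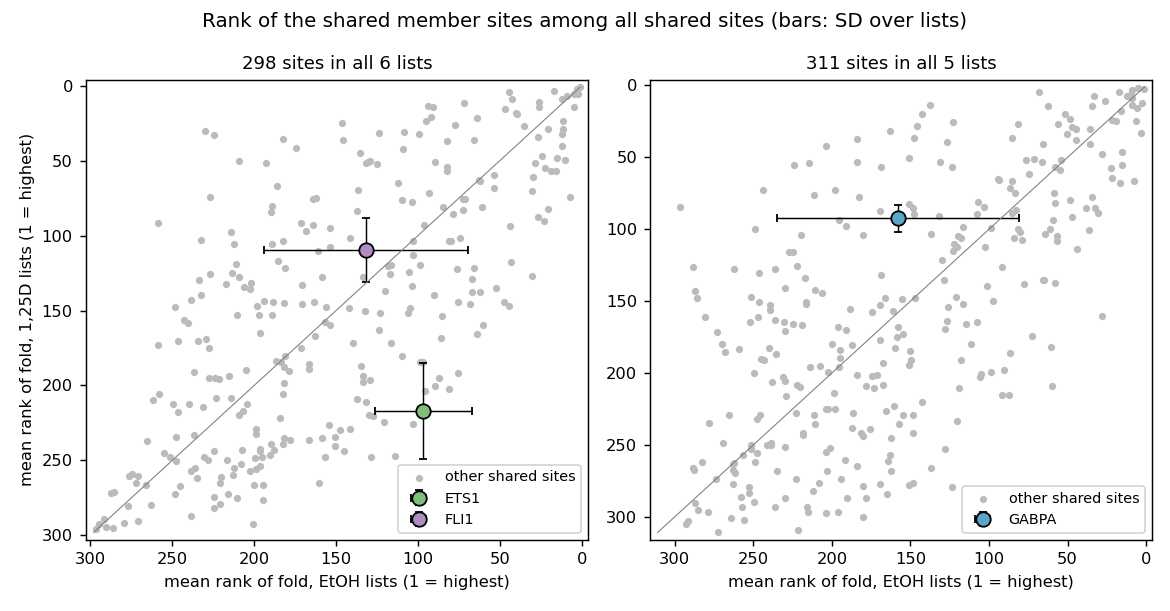
Mean rank of fold in the EtOH lists (x axis) and in the 1,25D lists (y axis), with rank 1 at the top right, for the sites present in all 6 lists (left) and all 5 lists (right); bars are the SD over lists and the line marks equal ranks. The ETS1 site lies below the line, at 96.7 and 217, the GABPA site above it at 158 and 92.5, and the bars of the FLI1 site cross it.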

How the data were processed

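VDR ChIPmentation peak lists of 3 1,25D and 3 EtOH libraries were analysed, 1 list per library. Reads were aligned to hg19 with Bowtie 1.1, and MACS2 called the peaks, per the submitters' processing notes; their settings are not stated in those notes as given. Per the file headers, the deposited values of a peak are a fold enrichment (a ratio over background) and a p-value. In the tests, folds and p-values served only to order or select the peaks of 1 list at a time. Means, SDs, medians and overlaps of folds across lists are description only, as folds of separate lists have no common scale. Whether starts are counted from 0 or 1 is not stated.

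Gene windows came from hg19 gene bodies fixed for this work. In the lists' order of chromosomes, 3 end in mid-line, and the incomplete line was left out; the 6 lists are compared up to chromosome 16 at 50293713 and 5 lists from there to chromosome 5 at 90175161. Peaks sharing 1 bp were merged, and a site's fold in a list is the highest there. Peak numbers and ranks were compared with two-sided exact permutation tests over libraries (Python 3.11.15, numpy 2.4.6). Sites named are those in 2 or more lists and, per gene, the strongest in 1 list; other sites of 1 list and those outside the windows were named after their values were seen. The 5 genes, and the lists and tests, were chosen with earlier results of these data known. Strands of SPI1, ETS1 and FLI1 are textbook knowledge. Motifs under sites, the rest of the ETS family and genes of like pattern need hg19 sequence or annotation; these planned steps were not run. An adjustment over the 3 shared member sites alone was planned and replaced by one over all shared sites. Merging, ranking and permutation steps were tested on simulated lists. Columns from other samples numbered 0. Windows of 50 and 200 kb, centres, 1 highest p, 50% overlap, a fold of 5 and left-out replicates were tried as alternatives.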

Additional observations from a re-analysis of the deposited data

How the results depend on the processing

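Of 131 alternatives over the results tested, 115 kept the direction or a count within 1.5 times, 12 moved a count or difference and 4 turned a direction. With peaks below a fold of 5 dropped before merging, 0 sites near SPI1, ETS1 and FLI1 were in all 1,25D and no EtOH lists, 0 were in all 6 lists, and 0 near ETS2 and GABPA were in all 5. Windows of 200 kb gave 2 sites near ETS2 and GABPA in both 1,25D and no EtOH lists. Between replicates 1 alone, which share a highest p (chosen after seeing the data), there were 4 sites called after 1,25D only near the chromosome 11 genes and 2 near the chromosome 21 genes. Counting sites in at least 1 1,25D and no EtOH list, also chosen after seeing the data, gave 7 and 1. The shares of all sites called in either of these ways were not counted, so these counts cannot be read as particular to the genes. The difference in peak number near ETS2 and GABPA (1,25D minus EtOH, -1 in full) was 0.667 with windows of 50 kb, 1.67 with 200 kb, 2 between replicates 1, and -3 between the other lists. At a fold of 5 or more (0.333 in full) it was 2.83 with windows of 200 kb and 0 between replicates 1. Peaks of that fold formed a larger share of every 1,25D list than of any EtOH list. The fold minimum, the windows and the fewer lists remove or add peaks by construction, and other causes were not tested.

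Leaving out each replicate gave a difference of -4.17 to -0.667 in peaks near SPI1, ETS1 and FLI1, and of 0.333 to 0.833 in those with a fold from 5 up. Near ETS2 and GABPA these ranges were -2 to 0, with 0 without 1,25D replicate 3, and 0 to 0.5, with 0 without EtOH replicate 3. It gave 2 to 3 sites called after 1,25D only and 2 in all lists on chromosome 11, and 0 to 1 (1 without 1,25D replicate 3) and 1 on chromosome 21. Rank differences ran from 103 to 156 for ETS1, from -51.7 to 16.3 for FLI1, where EtOH replicate 1 turned the direction, and from -96.5 to -18 for GABPA.

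Whether lists of the same number belong together is not given in the labels, although both replicates 1 share the lower highest p. Deviations in site presence over 2959 sites correlated at r = 0.0418, -0.00912 and 0.0308 for lists of the same number. For lists of unlike number r ran from -0.0464 to 0.0272. These values cannot decide whether the numbers mark pairs. With the replicate number as a block, the exact permutation p was 0.75 for peaks near SPI1, ETS1 and FLI1 (difference -2.33) and 0.25, the smallest 3 pairs allow, for the ETS1 rank (120 places). The block changed no call, as none was made without it. Depth is unknown, and a site without a peak in a list may still hold signal below that list's limit.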
